A study of Mus musculus with 2 samples.

Results

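The genes described here encode the nuclear part of the mitochondrial respiratory chain and ATP synthase in mouse bone marrow-derived macrophages (BMDM). They were chosen by gene symbol: Nduf genes of the a, b, c, s and v series, Sdha to Sdhd, genes starting with Uqcr, genes starting with Cox4 to Cox8, and genes starting with Atp5. Symbols containing "-ps" were left out, and each gene needed at least 1 transcript annotated as protein-coding. This gave 85 gene entries with 84 symbols, of 55536 gene entries in all and 22028 protein-coding genes. No measured value entered the choice.

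The study measured polyadenylated RNA in 2 libraries, replicates 1 and 2 of a single group of primary C57BL/6J macrophages grown from bone marrow. Per the labels, the cells of both libraries received 100 ng/mL Lipid A, the membrane anchor of bacterial lipopolysaccharide, for 12 h, were washed and left for 12 h, and met the same dose a further time for 30 min before harvest. Other label fields of the same samples name the agent lipoprotein A, and both libraries carry the same donor record. There was no untreated group, so no response to the agent could be measured, and the spread between the libraries may be technical.

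Electrons from NADH enter the chain at complex I and those from succinate at complex II. They pass through ubiquinone to complex III and by cytochrome c to complex IV, which reduces oxygen. The proton gradient that builds up drives complex V, the ATP synthase. All complexes except complex II combine subunits made from nuclear genes with subunits encoded in mitochondrial DNA. Activated macrophages are known for shifting between glycolysis and respiration, and complex II is known for oxidising succinate in these cells.

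Total counts were 41938419 in replicate 1 and 30780681 in replicate 2. The members took 235333 and 157345 of these counts, or 0.561% and 0.511%. A count of 0 allows up to 3 counts, which is 0.0715 and 0.0975 CPM (a count scaled to the library total). All 7 macrophage markers tested were detected, with summed levels of 16275 and 18005 TPM (a transcript level corrected for length and scaled to a fixed library total). Among these markers Lyz2 alone was higher in replicate 2, with 8427 and 11649 TPM in replicates 1 and 2, and 6 of 7 were lower. Neutrophil markers stood at a summed 74.8 TPM in replicate 1 and 9.88 TPM in replicate 2, and 6 of 6 were higher in replicate 1. The 3 collagen genes listed as stroma markers summed to 521 and 591 TPM, 3 of 3 higher in replicate 2. The part of these cells in the results below was not tested, and in bulk RNA fewer cells of a type and less RNA per cell cannot be told apart.

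Nearly the whole set was expressed. At 1 TPM or more in both libraries, 78 of 85 members were detected (91.8%), against 48.7% of all protein-coding genes. Median levels were 125 and 112 TPM in replicates 1 and 2, where the median of detected protein-coding genes was 17.5 and 16.4 TPM. In both libraries 75 members lay above that median and 48 reached 100 TPM. The share of all protein-coding genes at 100 TPM was not computed. By mean TPM, 40 were in the top 10% of detected protein-coding genes. Together the 85 members made up 1.52% and 1.43% of all TPM. The members are short: the median length was 693 nt against 2524 nt for detected protein-coding genes, and 64 of 85 were under 1000 nt, against 8.7%. A gene's length here is a mean over its transcripts, weighted by their TPM, so it also depends on the transcript split. Over 79 members with values in both quantifications, level and length had a Spearman correlation of -0.30 in TPM. The correlation was -0.03 when the level was recomputed over this full length. The order among members therefore differed between these scales.

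**Figure D1:**
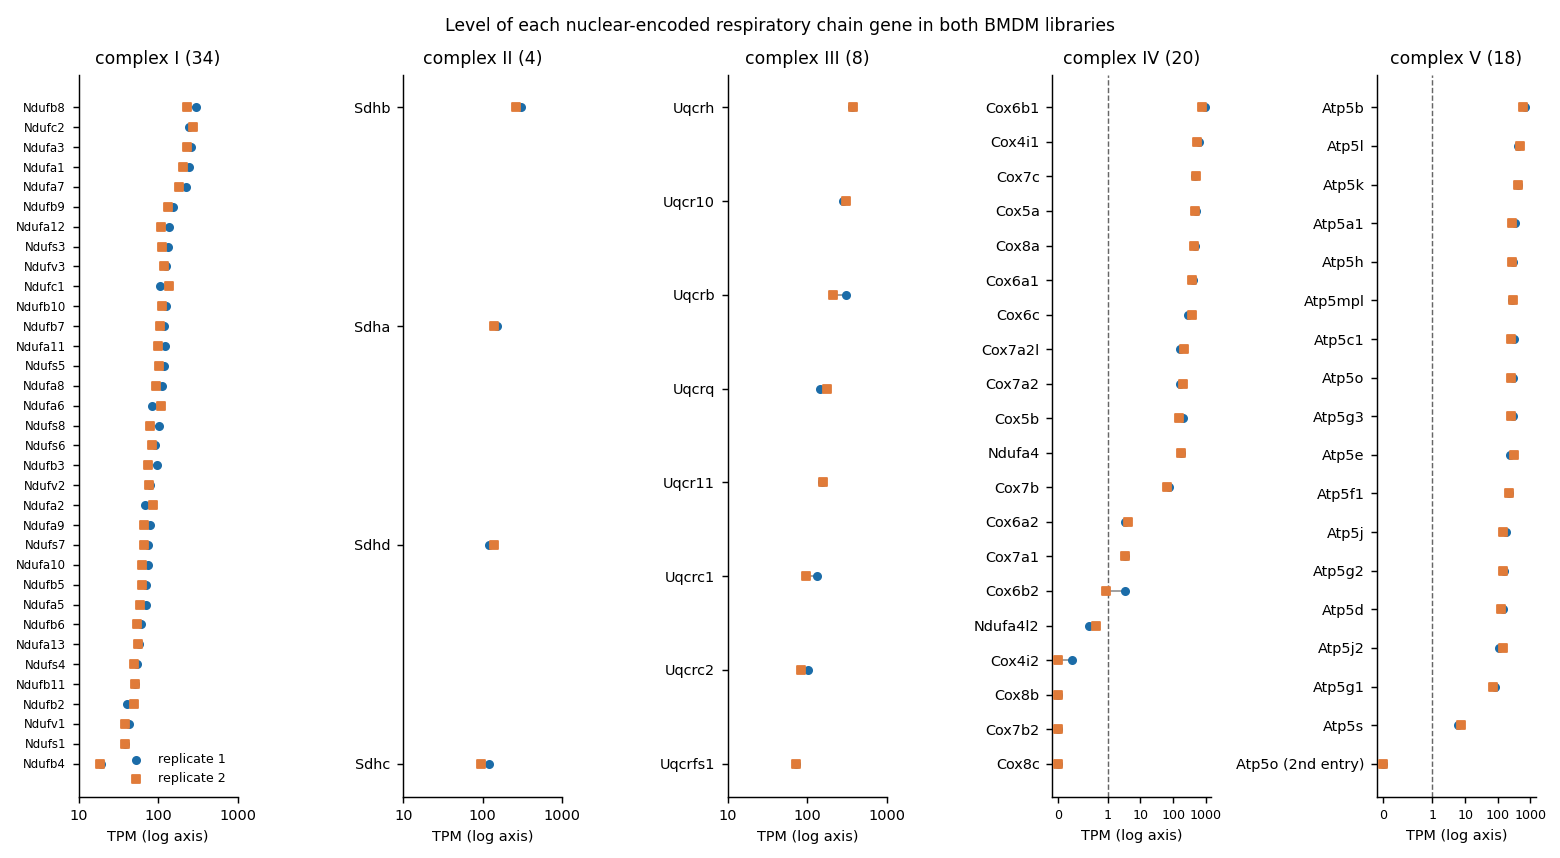
TPM of 84 of the 85 members in replicate 1 (circles) and replicate 2 (squares), with 1 panel per complex and the number of entries shown in brackets. The dashed line in the panels of complexes IV and V marks 1 TPM, the point labelled 0 stands for no TPM on an otherwise logarithmic axis, and the panels of complexes I to III start at 10 TPM. Apart from Atp5s, the 7 entries below 1 TPM in a library and the 2 detected restricted paralogs, members lie between 18.4 TPM (Ndufb4) and 929 TPM (Cox6b1).

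Complex I, the NADH dehydrogenase, had 35 members and all 35 were detected. With medians of 98.2 and 86.0 TPM it was the lowest of the 5 complexes in both libraries. The highest were accessory subunits of the membrane arm: Ndufb8 had 303 TPM in replicate 1 and 233 TPM in replicate 2. Ndufc2 had 242 and 272 TPM. Ndufa3 had 256 and 234 TPM. These 3 genes stood at more than 2 times the complex median in both libraries. Most of the 7 nuclear-encoded core subunits carry the flavin or iron-sulfur clusters or bind ubiquinone. The core genes had medians of 80.03 and 76.41 TPM, and the 28 accessory subunits 103 and 97.4 TPM. The order of these groups depended on the scale: in the FASTQ-derived table their medians were 75.2 and 67.0 TPM (core) and 76.9 and 70.3 TPM (accessory). Over the full length the core median, 80.3 TPM, was above the accessory one, 73.8 TPM. Among the core genes Ndufs3 had 134 and 112 TPM. Ndufv1, which binds NADH and the flavin, had 42.8 and 38.1 TPM, and Ndufs1, which carries several iron-sulfur clusters, had 38.4 and 38.2 TPM. These 2 were the lowest core genes and did not overlap with Ndufs3, while Ndufv2, which also lies at the NADH-binding end, had 80.03 and 76.41 TPM. Ndufb4, an accessory subunit, was the lowest member of the complex at 19.1 and 18.4 TPM, a value that depends on a copy described below.

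Complex II, succinate dehydrogenase, is encoded wholly by nuclear genes and all 4 were detected, with medians of 135 and 138 TPM. Sdhb, the iron-sulfur subunit, had 306 TPM in replicate 1 and 262 TPM in replicate 2. Sdha, the flavin-bearing catalytic subunit, had 150 and 139 TPM. The membrane anchors Sdhd and Sdhc had 121 and 137 TPM and 121 and 94.4 TPM. Sdhb lay above the other 3 genes in both libraries, by 2.63-fold over Sdhc on the mean, while Sdhc and Sdhd were level in replicate 1 and apart in replicate 2, where Sdhd was higher.

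Complex III, the cytochrome bc1 complex, had 8 members, all detected, with medians of 149 and 166 TPM. In TPM its small accessory subunits stood above its core proteins. Uqcrh, the hinge protein at cytochrome c1, had 370 and 374 TPM. Uqcr10, another small subunit, had 284 and 308 TPM. Uqcrb, which lies near a ubiquinone site, had 306 and 211 TPM. The 5 accessory genes had medians of 284 and 211 TPM, and the 3 core genes 102 and 84.2 TPM, and the lowest accessory mean was 155 TPM (Uqcr11) and the highest core mean 115 TPM (Uqcrc1). The groups overlapped on the other scales: over the full length Uqcr11 had 82.2 TPM, Uqcrq 117 and Uqcrc1 128, and in the FASTQ-derived table of replicate 1 Uqcrq had 100 TPM, Uqcr11 109 and Uqcrc1 115. Uqcrfs1, the Rieske iron-sulfur protein that passes electrons to cytochrome c1, was lowest at 72.6 and 72.7 TPM.

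Complex IV, cytochrome c oxidase, showed the widest split, since several of its subunits exist as a common and a tissue-restricted form. The 12 common genes had medians of 348 and 372 TPM, and 11 of the 12 reached 100 TPM in both libraries. Cox6b1, which bridges the monomers on the intermembrane side, had 929 TPM in replicate 1 and 766 TPM in replicate 2 and was the highest member in TPM. Over the full length Cox6b1 had 509 TPM, and Atp5b, at 728 TPM, was highest. Cox4i1, the largest nuclear subunit, had 619 and 558 TPM. Cox7c had 476 and 501 TPM, and Cox5a, Cox8a, Cox6a1 and Cox6c had means of 488, 454, 387 and 333 TPM. Cox7b was the lowest common form at 72.5 and 63.4 TPM, 12.5-fold below Cox6b1 on the mean. Ndufa4, first described in complex I and later assigned to complex IV, had 170 and 173 TPM.

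Of the 8 tissue-restricted paralogs 2 reached 1 TPM in both libraries. Cox6a2, the heart and muscle form of Cox6a1, had 3.48 TPM (40 counts) in replicate 1 and 4.06 TPM (34 counts) in replicate 2. Cox7a1, the heart, muscle and brown fat form of Cox7a2, had 3.28 TPM (13 counts) and 3.46 TPM (9 counts). Cox6b2, the testis form of Cox6b1, had 3.33 TPM (26 counts) and 0.90 TPM (4 counts), so that it passed the limit in replicate 1 alone. All 3 stood far below their common partner, of whose family TPM they took 0.968% ± 0.145, 0.906% ± 0.105 and 0.237% ± 0.170 (SD, n = 2). Ndufa4l2, a hypoxia-induced relative of Ndufa4, had 0.27 and 0.44 TPM on 5 and 6 counts. Cox4i2, the lung form that responds to low oxygen, had 1 count in replicate 1 and 0 in replicate 2. Cox8b (heart, muscle and brown fat), Cox7b2 and Cox8c (testis) stood at 0 counts, where up to 3 counts each would be allowed. None of the 5 muscle markers, 2 brown fat markers or 3 male germ cell markers reached 1 TPM in either library. The muscle marker Tnnt2 had 0.34 and 0.28 TPM, and the brown fat marker Ucp1 and the germ cell markers Tnp1 and Prm1 had 0 counts. Itgad, which overlaps Cox6a2 on the opposite strand, had 6 and 1 counts, and Shmt2, which overlaps Ndufa4l2 on the opposite strand, had 869 and 558. The strand setting of the counting is not stated in the labels or headers.

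The Cox7a family was the only one of the complex IV families with a pair at like levels. Cox7a2 had 166 and 200 TPM, and Cox7a2l had 166 and 213 TPM. In some mouse strains Cox7a2l is known as a factor that joins complexes III and IV into supercomplexes. Its RNA level does not show whether the protein has this role in the strain used here, which was not tested. Cox7a2l took 50.3% ± 1.13 of the family's TPM (SD, n = 2) and Cox7a2 48.8% ± 1.06. In replicate 1 the shares of Cox7a2 and Cox7a2l were 49.6% and 49.5%, and in replicate 2 they were 48.1% and 51.1%, so the pair was level in one library and slightly apart in the other. By counts, which do not correct for the greater length of Cox7a2l, it held 67.2% and 69.1%.

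Complex V had 18 entries, of which 17 were detected, with medians of 257 and 259 TPM. In the F1 head Atp5b, the catalytic beta subunit, had 695 TPM in replicate 1 and 611 TPM in replicate 2 and carried 27194 and 17103 counts, the most of any member. Atp5a1, the alpha subunit that alternates with it in the ring, had 344 and 279 TPM. The central stalk genes Atp5c1, Atp5e and Atp5d had means of 284, 273 and 137 TPM. Atp5b thus lay above all 4 other head genes in both libraries. Among the stalk and membrane genes Atp5l (subunit g) had 434 and 481 TPM and Atp5k (subunit e) 421 and 419 TPM. These are short genes, and over the full length Atp5l had 303 TPM and Atp5k 169 TPM, the latter then below Atp5o (251), Atp5f1 (241) and Atp5h (218). Atp5o, the link between head and stalk, had 295 and 266 TPM. Atp5f1, the stalk subunit b, had 227 and 219 TPM. Atp5s, a coupling factor rather than a core subunit, was lowest at 6.20 and 7.38 TPM. A second entry of the name Atp5o, which spans chr16:91684398-91926982 (mm10) across Donson, Cryzl1 and other genes, had 0 counts in both libraries. Of its 31-base words 94.0% also occur in other genes, 51.4% in Donson and 42.6% in the main Atp5o entry. Its 0 counts therefore do not show that it is silent.

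Without the restricted paralogs, the order of the complexes by median TPM was IV, V, III, II and I. With every entry counted, means of the 2 library medians were 258, 163, 158, 137 and 92.1 TPM for complexes V, IV, III, II and I. Recomputed over the full length, complexes II and V came out alike, both at 157 TPM, with IV at 128, III at 123 and I at 76.2 TPM. In the FASTQ-derived table they were 192 (V), 131 (IV), 121 (II), 109 (III) and 71.4 TPM (I). Complex I was lowest under each of these 3 scales and the order of the others was not fixed.

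Several members have processed copies elsewhere in the genome, and for 3 of them the reads were divided between gene and copy. The 31-mers of a transcript, its words of 31 bases, were compared with those of all annotated transcripts: 60 of 85 members (70.6%) shared a 31-mer with another gene, against 66.1% of 21949 protein-coding genes. Of the members 29 (34.1%) shared 5% or more of their 31-mers, against 26.6%, and 5 (5.88%) shared 25% or more, against 14.1%. For 4 members, Atp5g2, Ndufb4, Cox7c and Atp5l, all 31-mers of a pseudogene at another locus were also found in the member, and there were 5 such copies in all. Pseudogenes with fewer than 100 shared 31-mers were not counted. The share of all protein-coding genes with such a copy was not computed, so this count does not set the members apart. The first 90 bases of the coding sequence, the start codon in capitals, are shown for the 3 members whose copy drew counts. Each line is the same in the member's transcript and in the single exon of its copy, so a read from these bases cannot be assigned to either.
Atp5g2 (chr15) and Gm10175 (chr7): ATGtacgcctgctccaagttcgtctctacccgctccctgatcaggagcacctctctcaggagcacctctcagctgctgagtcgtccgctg
Ndufb4 (chr16) and Ndufb4c (chr15): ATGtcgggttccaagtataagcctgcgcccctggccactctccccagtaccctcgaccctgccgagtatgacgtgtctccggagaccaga
Cox7c (chr13) and Gm12338 (chr11): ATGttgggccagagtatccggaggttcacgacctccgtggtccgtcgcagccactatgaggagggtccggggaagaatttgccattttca
The identity did not end there. All 645 bases of Gm10175 (chr7:23946646-23947290, mm10) match 1 block of the 731-base transcript Atp5g2-202, including its whole coding sequence of 438 bases. All 390 bases of Ndufb4c (chr15:73809507-73809896) match 1 block of the 971-base Ndufb4-201 with all 387 coding bases. All 192 bases of Gm12338 (chr11:75599763-75599954) match 1 block of the 540-base Cox7c-203 with all 189 coding bases.

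Atp5g2, 1 of 3 genes for the same mature c subunit, had 2085 counts in replicate 1 and 1337 in replicate 2 in the alignment-derived table. In the FASTQ-derived table it had 145 and 104. Gm10175 had 585 and 419 counts in the first table and 2613 and 1702 in the second. The sums of gene and copy were close: 2670 and 2758 counts in replicate 1, and 1756 and 1806 in replicate 2. Atp5g2 therefore held 78.1% of the pair's counts (exact 95% interval 76.5 to 79.6%) in one table and 5.26% (4.45 to 6.16%) in the other in replicate 1, and 76.1% and 5.76% in replicate 2. These intervals cover counting error only, and not how shared reads were assigned to gene or copy. The level of Atp5g2 was 162 and 142 TPM in the alignment-derived table and 8.85 and 8.26 TPM in the FASTQ-derived table.

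Adding the copies brought the tables together. Atp5g2 then had 207 and 186 TPM in the alignment-derived table and 168 and 144 TPM in the FASTQ-derived table. The c-ring genes illustrate what this does to a comparison between paralogs. Taken as deposited, Atp5g3 had 55.0% of the family's TPM, Atp5g2 30.0% and Atp5g1 15.0% in the alignment-derived table, with SDs of 0.141, 0.283 and 0.141 (n = 2). In the FASTQ-derived table the same shares were 76.2%, 2.98% and 20.8%. With copies counted as Atp5g2, they were 50.5%, 35.7% and 13.8% in the first table and 50.6%, 35.7% and 13.8% in the second. Atp5g3, at 299 and 257 TPM, was the highest of the 3 genes in every version, whereas the order of Atp5g1 and Atp5g2 turned with the table.

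Ndufb4 showed another pattern. It had 371 and 269 counts in the alignment-derived table, 29.9% and 35.0% of the counts of gene and copy, and 421 and 288 counts (32.3% and 36.8%) in the FASTQ-derived table. Both tables thus gave most reads to the copy. Ndufb4c, which the rule does not include as it has no protein-coding transcript, was listed at 231 and 196 TPM, and Ndufb4 itself at 19.1 and 18.4 TPM. With the copy added Ndufb4 had 64.0 and 52.6 TPM, no longer the lowest of complex I, and Ndufs1 then took that place on the mean, at 38.3 TPM beside 40.4 TPM for Ndufv1. For Cox7c the copy took 103 and 77 counts in the alignment-derived table, 3.30% and 3.46% of the pair, and 0 in the FASTQ-derived table. These few counts were listed at 349 and 451 TPM, because the effective length of the 192-base copy was 10.5 and 7.96 bases. The copy of Atp5l, Gm10221, and a second copy of Atp5g2, Gm10231, had 0 counts.

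**Figure D2:**
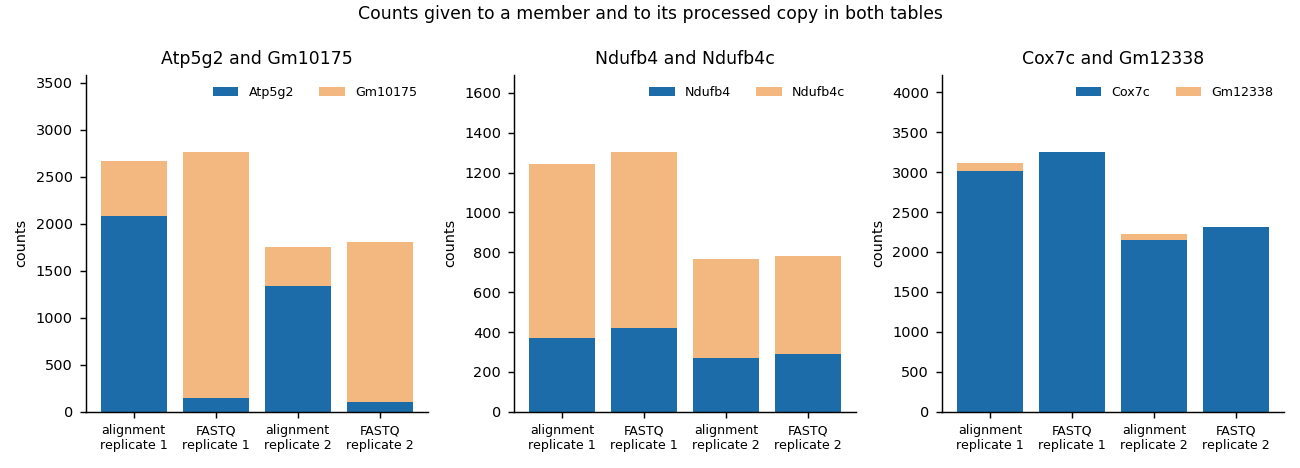
Counts of 3 members (dark) and of their processed copies (light) in the alignment-derived and FASTQ-derived tables of each replicate, stacked from 0. Bar heights of a replicate are close between the tables, while the division of Atp5g2 and Gm10175 turns over: 2085 and 585 counts against 145 and 2613 in replicate 1.

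The name rule also left out an entry with the level of a regular subunit. Ndufb1-ps (chr12:101968090-101977068), annotated as a long noncoding RNA from a bidirectional promoter, had 1636 and 1416 counts and 139 and 167 TPM. Of the other 11 entries that match the symbols but not the rule, Ndufb4c was the only one above 1 TPM. Chain components under other names were also expressed: Usmg5, a small membrane subunit of complex V, had 526 and 697 TPM, Atpif1, the inhibitor of its ATPase activity, 265 and 277 TPM, Ndufab1, the acyl carrier protein of complex I, 89.2 and 71.2 TPM, and Cyc1, cytochrome c1 of complex III, 86.8 and 59.0 TPM.

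Most members consisted almost wholly of protein-coding transcripts. For 74 members at 10 TPM or more in both tables, the median share of TPM in other transcript classes was 0.568%, against 2.58% for 6578 protein-coding genes chosen in the same way. Of these members 45 were under 1% and 14 above 10%, but these 2 limits were not counted over all such genes. For 3 of 74 members that share exceeded 50% in the FASTQ-derived table, against 5.09% of all such genes, and the same 3 exceeded it in the alignment-derived table. In Ndufa5, an accessory subunit of the matrix arm, the processed transcript Ndufa5-204 took 64.1% and 65.4% of TPM in the FASTQ-derived table. In Atp5f1 the transcript Atp5f1-203, annotated for nonsense-mediated decay, took 61.9% and 61.2%. In Ndufs4, a complex I subunit whose loss is known to cause a mitochondrial encephalopathy in mice, the nonsense-mediated decay transcript Ndufs4-202 took 56.3% and 56.4%. The alignment-derived table gave these transcripts 65.2% and 66.0%, 55.3% and 49.6%, and 58.7% and 59.7%. Cox6b1, the highest member in TPM, was divided between Cox6b1-201, which encodes the protein, and the retained intron Cox6b1-202, with 45.0% in replicate 1 and 29.5% in replicate 2. In the alignment-derived table Cox6b1-202 took 56.9% and 48.5%, which made Cox6b1 the fourth member above 50% there on the mean. The level of Cox6b1-201 itself ran from 318 to 396 TPM over the libraries and tables. Ndufa5-204 and Cox6b1-202 are 453 and 369 bases long, and a short transcript gains TPM through its small effective length.

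**Figure D3:**
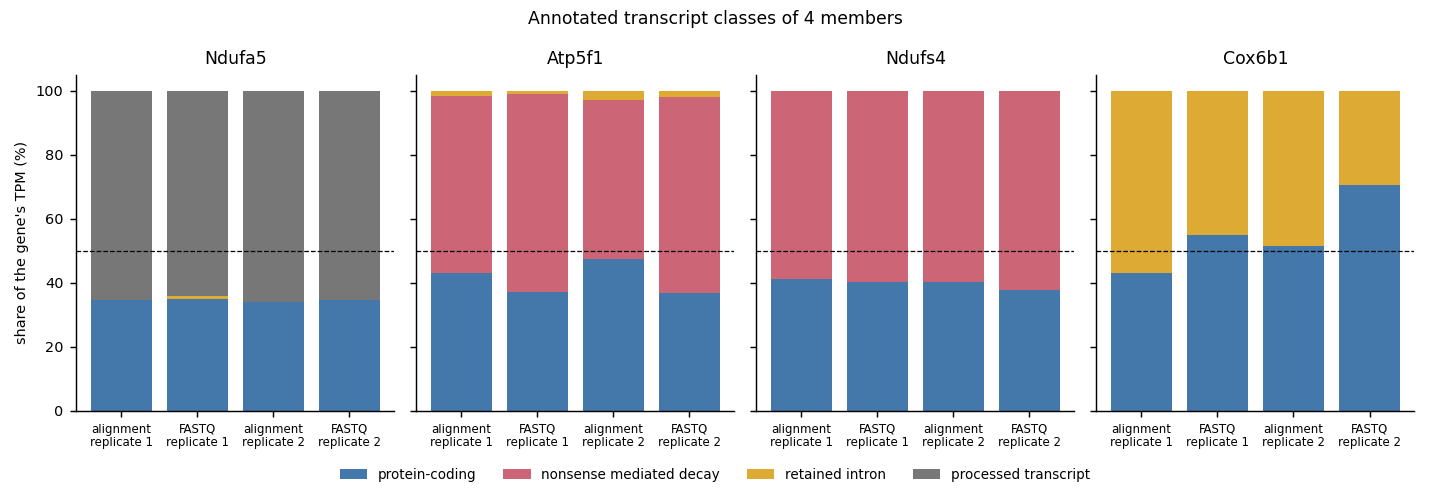
Share of each gene's TPM (percent, from 0) by annotated transcript class for Ndufa5, Atp5f1, Ndufs4 and Cox6b1, with 1 bar per table and replicate. The dashed line marks 50%: the blue protein-coding part stays below it in all bars of the first 3 genes, and for Cox6b1 it lies below it in 1 of 4 bars.

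Differences between the libraries were small in size for most of these genes. The ratio of replicate 2 over replicate 1 was taken on counts scaled by the trimmed mean of M-values (TMM) for 77 members with 20 or more counts in each library. No member reached a 2-fold difference, against 2.48% of 12471 genes. The ratios ran from -0.57 to 0.39 on the log2 scale, and 76 of 77 were within 0.5 of 0 (98.7%, against 88.2% of protein-coding genes). Their SD was 0.211, where that of all genes was 0.388. The comparison genes were not matched to the members by count level, and 0 of 77 is close to a share of 2.48%. These values therefore do not set the members apart from other genes with as many counts. The members' median was -0.14, beside -0.02 for all genes and -0.03 for protein-coding genes. Lower values in replicate 2 were found for 54 of 77 members (70.1%), against 53.5% of all genes, and higher values for 23. Since each side is 1 library, none of these differences was tested.

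At these depths many small differences exceeded counting error. The exact 95% interval of the ratio, which covers counting error only, left out 1 for 55 of 77 members (71.4%), against 54.5% of all genes, and 44 of the 55 were lower in replicate 2. By complex the lower and higher counts were 21 and 4 of 35 in complex I, 3 and 1 of 4 in complex II, 3 and 0 of 8 in complex III, 7 and 3 of 13 in complex IV, and 10 and 3 of 17 in complex V. The summed counts of all members gave a log2 ratio of -0.13 (-0.14 to -0.12). Summed over a complex it was -0.15 for I, -0.07 for II, -0.17 for III, -0.05 for IV and -0.16 for V. Macrophage markers had a median of -0.25 on the same scale, 6 of 7 being lower in replicate 2, and the part of this in the members' ratios was not tested.

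The lowest ratio belonged to Uqcrb, with 2299 counts in replicate 1 and 1131 in replicate 2, a log2 ratio of -0.57 (-0.67 to -0.47). Uqcrc1, a core protein of complex III, had 5138 and 2800 counts and -0.42 (-0.49 to -0.36). Cox5b, a matrix-side subunit of complex IV, had -0.40 (-0.48 to -0.31). Ndufb3 and Ndufs8 of complex I followed at -0.37 and -0.36. These 5 members, from 3 complexes, were each lower in replicate 2 in both tables, which come from the same libraries.

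At the other end stood Atp5j2 (subunit f of complex V), with 1867 and 1782 counts and a log2 ratio of 0.39 (0.29 to 0.48). Cox7a2l had 3737 and 3576 counts and 0.39 (0.32 to 0.46). Ndufc1 had 457 and 438 counts and 0.39 (0.20 to 0.58). Ndufa2 and Ndufa6, small subunits of complex I, had 0.32 and 0.31. The 11 members whose interval lay above 1 were Ndufc1, Ndufc2, Ndufa2, Ndufa6, Sdhd, Cox6c, Cox7a2, Cox7a2l, Atp5e, Atp5l and Atp5j2. The 3 c-ring genes and the ring subunits Atp5a1 and Atp5b had intervals below 1. In 70 of 77 members the direction was the same in the FASTQ-derived table. Both tables come from the same libraries, so this is not an independent check.

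**Figure D4:**
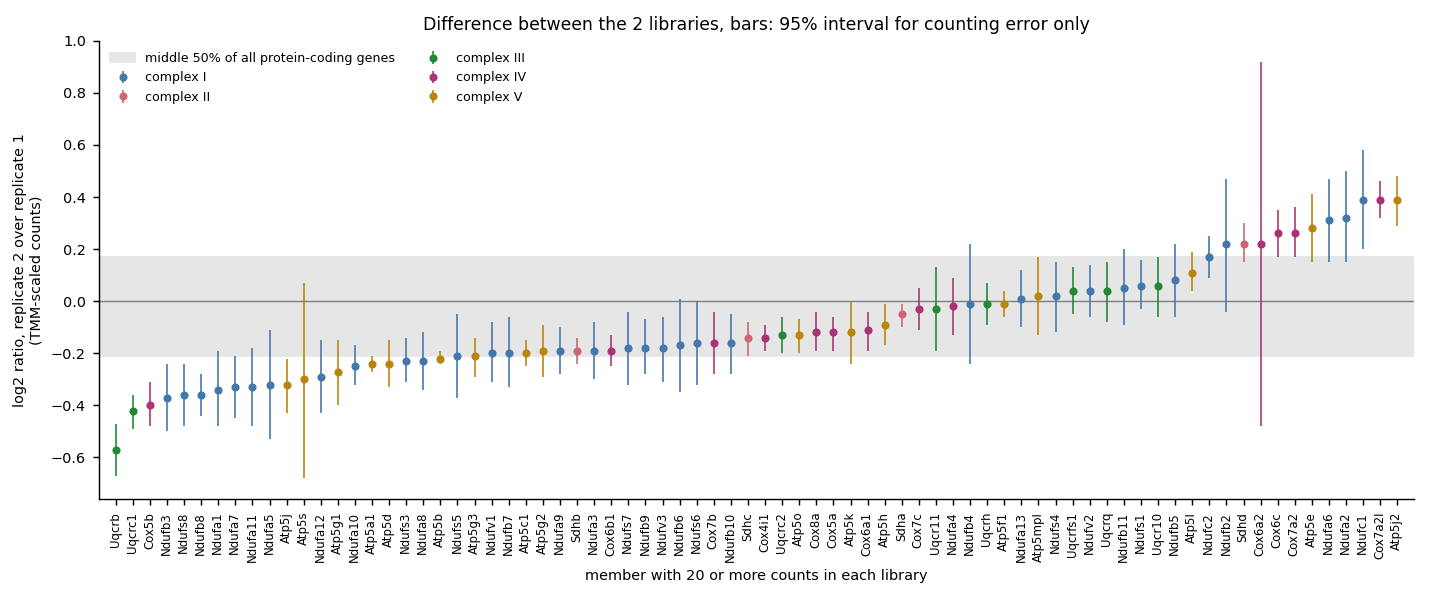
Log2 ratio of replicate 2 over replicate 1 for 76 of the 77 members with 20 or more counts in each library, ordered by ratio and coloured by complex, with exact 95% intervals for counting error as bars. The grey band is the middle 50% of protein-coding genes (-0.21 to 0.17); the members run from Uqcrb at -0.57 to 0.39 and most lie below 0.

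Levels of these short genes moved with the quantification. Over 79 members at 1 TPM or more in both tables, the log2 of FASTQ-derived over alignment-derived TPM was centred on the median of 10820 protein-coding genes, which was -0.18. The members' median was then -0.16, with 73 lower and 5 higher in the FASTQ-derived table and Ndufb5 at the centre to 2 decimals. By length the medians were -0.46 for 11 members under 500 nt, -0.17 for 47 members of 500 to 1000 nt and -0.06 for 21 longer members. All protein-coding genes in the same length classes had medians of -0.32, -0.13 and 0.01. Across members the Spearman correlation of this difference with length was 0.80, and across all genes 0.35; genes are not independent replicates and share both libraries. The order of levels was close between tables, with a Spearman correlation of 0.97 over the 79 members.

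A 2-fold difference between quantifications was found for 2 of 79 members (2.53%), against 0.767% of all protein-coding genes. Atp5g2 differed by -3.97, the case of the copy above. Cox6a2 differed by 1.15 the other way, with 3.48 and 4.06 TPM in one table and 7.84 and 6.91 TPM in the other. Below the 2-fold rule the largest differences were those of Ndufc1 (-0.68), Atp5k (-0.55), Cox6b1 (-0.49) and Cox7c (-0.48). Their mean lengths over transcripts were 398, 371, 475 and 487 nt. The value for Cox6b1 rests on its split between Cox6b1-201 (618 bases) and Cox6b1-202 (369 bases), which differed between the tables. Cox6b1 remained the highest complex IV member in both tables, at 616 and 454 TPM in the FASTQ-derived one.

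**Figure D5:**
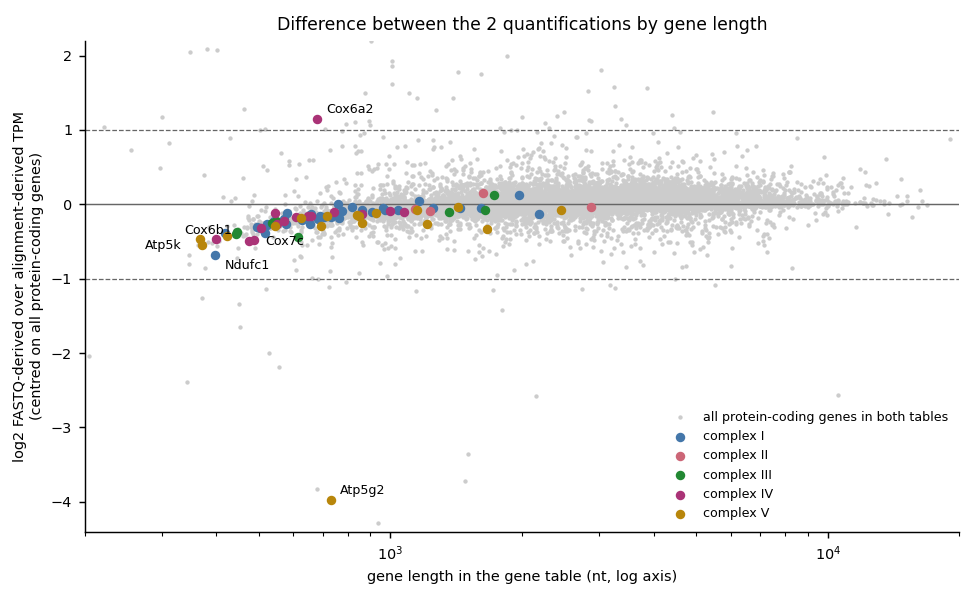
Log2 of FASTQ-derived over alignment-derived TPM, centred on all protein-coding genes, against gene length (log axis), for members coloured by complex and all protein-coding genes in grey (12 of them lie outside the plotted range). Dashed lines mark 2-fold: the shortest members lie lowest, and Atp5g2 at -3.97 and Cox6a2 at 1.15 stand outside the lines.

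The genes that build the complexes had lower median TPM than the subunits. Single genes went the other way: Cox17 and Coa5, for example, lay above the complex IV subunits Cox5b, Ndufa4 and Cox7b on the mean. For complex I, 15 of 15 assembly factors were detected, at median levels of 10.4 and 10.8 TPM, against 98.2 and 86.0 TPM for its subunits. The highest on the mean were Foxred1 at 35.8 and 34.1 TPM, Ndufaf8 at 24.6 and 36.6 TPM, which was above Foxred1 in replicate 2, and Tmem126b at 22.2 and 18.9 TPM, and Nubpl, which delivers iron-sulfur clusters, was lowest at 2.10 and 2.72 TPM. For complex IV 20 of 21 factors were detected, the median levels being 28.3 and 20.9 TPM. Cox17, the copper chaperone, had 267 and 239 TPM, Coa5 173 and 189 TPM, and Coa3 107 and 91.1 TPM, while Sco2 was lowest of those detected at 6.58 and 4.35 TPM. Complex II factors were detected in 3 of 4 cases (Sdhaf2 at 53.7 and 53.8 TPM, Sdhaf4 at 16.1 and 15.9, Sdhaf1 at 4.06 and 4.98), and Sdhaf3 had 0.79 and 0.68 TPM. All 6 complex III factors were detected, led by Uqcc2 (97.0 and 101 TPM), Uqcc1 (52.1 and 46.7) and Uqcc3 (40.7 and 38.5), with Lyrm7 lowest at 1.27 and 2.14 TPM. The 3 complex V factors Atpaf2, Tmem70 and Atpaf1 had means of 23.3, 16.1 and 14.3 TPM.

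Regulators of mitochondrial biogenesis were low, and 11 of 12 were detected, and their medians were 13.2 and 12.4 TPM. Esrra, a nuclear receptor that drives these genes, had 28.8 and 27.9 TPM, Tfam, which packages and transcribes mitochondrial DNA, 15.98 and 22.17 TPM, and Yy1 17.5 and 18.1 TPM. Ppargc1a, the coactivator best known for this programme in muscle and brown fat, was at 0.11 and 0.23 TPM on 7 and 3 counts, whereas its relatives Ppargc1b and Pprc1 had 2.37 and 2.75 TPM and 13.3 and 12.1 TPM. Among the carriers that use the gradient, 3 of 6 were detected. Ucp2, an uncoupling protein homologue of immune cells, had 713 and 511 TPM, Slc25a5, which exchanges ADP for ATP, 589 and 517 TPM, and Slc25a4 71.9 and 73.1 TPM. Of 6 electron carriers and subunits outside the rule all were detected, with medians of 74.5 and 64.9 TPM. Etfb, which passes electrons from fat oxidation, had 105 and 80.8 TPM, and its partner Etfdh was lowest at 22.7 and 18 TPM.

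The partner subunits encoded in mitochondrial DNA could be compared with the nuclear ones for some genes only. Of the 13, 12 were at 1 TPM or more in both libraries, with medians of 1177 and 976 TPM that include the doubtful genes below. For mt-Co1, mt-Nd1, mt-Nd2, mt-Nd4, mt-Nd5, mt-Nd6 and mt-Cytb the partner gene with the most shared 31-mers had 26 counts or fewer in the alignment-derived table, or no such partner existed, and these 7 had means from 904 TPM (mt-Nd2) to 7913 TPM (mt-Co1). On the mean each stood above the highest nuclear member, Cox6b1 at 847 TPM, although mt-Nd2 and Cox6b1 were close in replicate 1, at 924 and 929 TPM. Reads from the opposite strand were not checked for these 7 genes, mt-Nd6 among them, and the strand setting of the counting is not stated. Counts of further partners were not checked either, which limits the value of mt-Co1 most. It shared 63.9% of its 31-mers with 3 other genes, and the top partner held 45.2%. For mt-Nd5 these shares were 16.8% and 12.8%. By contrast mt-Atp6, mt-Co2, mt-Co3, mt-Nd3 and mt-Nd4l shared from 97.5% to 100% of their 31-mers with other genes, which drew from 1310 to 77672 counts in the alignment-derived table. In replicate 1, mt-Co3 had 4 counts in the alignment-derived table and 22833 in the FASTQ-derived table. No level is given for these 5 genes. The short mt-Atp8 had 19911 and 27074 TPM in the alignment-derived table and 4840 and 5268 TPM in the other.

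Promoters were searched in the RefSeq table (build GRCm38.p6), which holds 250 bases before to 50 bases after a start site. It matched 66 of 84 member symbols, with 71 promoters. Motifs of factors known for nuclear mitochondrial genes were looked for on both strands, as exact letters, beside the share of all 21263 protein-coding promoters and of the 10919 promoters of genes detected here. The NRF1 core GCATGCGC was found in 10 of 71 member promoters (14.1%), in 3.52% of all promoters and in 5.47% of those of detected genes. The YY1 core AAGATGGC was found in 9 (12.7%), against 3.05% and 4.81%. The ETS site CCGGAAG, bound by GABP, was found in 16 (22.5%), against 11.6% and 18.7%. At least 1 of these was present in 29 member promoters (40.8%), in 16.7% of all and in 26.5% of those of detected genes. The other motifs were the SP1 box GGGCGG (38.0%, against 46.2% and 63.3%), CCAAT (42.3%, against 38.2% and 37.8%) and the TATA box TATAAA (11.3%, against 12.6% and 7.01%). A match to these letters is not shown to be a bound site, matches of different motifs may overlap, and no test was made of the shares.

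Carriers of the NRF1 core were Ndufa6, Ndufa8, Ndufa11, Sdhb, Uqcr11, Uqcrc1, Cox6a1, Atp5g2, Atp5k and Atp5l, so that each of the 5 complexes had at least 1. To show the core in place, the stretch around it is given for the highest carrier of each complex whose window lies before the RefSeq start site and outside all exons of GENCODE M21, with the match in capitals, on the gene's strand. Complexes II, III and IV had no such window.
Ndufa6 (chr15:82354341-82354400, minus strand): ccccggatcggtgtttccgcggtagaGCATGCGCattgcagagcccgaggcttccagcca
Atp5l (chr9:44920949-44920992, minus strand): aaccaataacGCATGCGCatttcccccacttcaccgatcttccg
The match began 83 bases before the RefSeq start site in Ndufa6 and 240 in Atp5l. Mean levels of these genes were 96.3 TPM for Ndufa6 and 458 TPM for Atp5l. Atp5j, which carries an ETS and a YY1 match, overlaps on the opposite strand with Gabpa, the gene of the ETS factor itself, at 161 TPM for Atp5j and 13.3 TPM for Gabpa on the mean.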

How the data were processed

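Both libraries were analysed from tables the authors deposited, quantified against mm10 with GENCODE M21 per the deposited notes. Neither labels nor headers state which tools were used. Per the file headers, the authors gave expected counts and TPM in the tables made from alignments. The table made from FASTQ reads has the authors' estimated counts and TPM per transcript, which were summed per gene. Expected counts were rounded to whole numbers. Spike-in targets (97, with 0.0526% and 0.0667% of counts) and 26248 numeric names with 0 counts were left out of library sizes.

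From these, scaling factors (TMM, edgeR 4.0.16; DESeq2 1.42.0 and total counts as alternatives; R 4.3.3) and log2 ratios with 0.5 added were computed in Python 3.11.15, with exact (Clopper-Pearson) 95% intervals, which cover counting error only. The ratio used members with 20 or more counts in each library; the planned filter was a mean of 20. The scripts were tested on simulated counts. A chi-square per degree of freedom of 18.2 over 79 members showed that the libraries were not one library deposited more than once. There is 1 group of 2 libraries, so no test was made. Named members are the 3 highest and the lowest detected of each complex, those under 1 TPM in a library, restricted paralogs, the 5 highest and 5 lowest ratios at a mean of 100 counts, the 5 largest differences between quantifications, and the 3 highest and the lowest detected gene of each related list; other named genes were chosen after their values were seen. Members, lists and motifs were chosen with earlier results of these data known. Total counts of 41938419 and 30780681 set the precision. Values of 1 complex I member are not reported here and its points are not in the figures, although it is part of every count and median.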

Additional observations from a re-analysis of the deposited data

How the results depend on the processing

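No paired analysis was possible because there is 1 group and so no second group to pair with. The direction of the members' median ratio held under all 6 alternatives: it was -0.18 in the FASTQ-derived table, and without a filter 2 members, Cox6b2 and Cox4i2, passed 2-fold on 26 and 4 and on 1 and 0 counts. Median levels moved with the scale. For all members the value of 118 TPM became 92.7 (FASTQ-derived), 104 (full length) and 135 (detected members only). For complexes I to V the FASTQ-derived medians were 71.4, 121, 109, 131 and 192 TPM, the full-length ones 76.2, 157, 123, 128 and 157 TPM, and detected members alone gave 269 for complex IV and 268 for complex V. Shares of families in FASTQ-derived TPM were 0.029% (Cox4i2), 2.46% (Cox6a2), 0.722% (Cox7a1), 0.274% (Ndufa4l2), 20.8% (Atp5g1), 2.97% (Atp5g2) and 76.3% (Atp5g3). In expected counts, which ignore length, they were 1.32% (Cox6a2), 0.204% (Cox7a1), 68.2% (Cox7a2l), 0.41% (Ndufa4l2), 18.2%, 29.4% and 52.4% (Atp5g1 to Atp5g3). With exact copies added, an alternative chosen after seeing the data, Atp5g1 to Atp5g3 had 13.8%, 35.7% and 50.5% in alignment-derived and 13.8%, 35.7% and 50.6% in FASTQ-derived TPM. The quantification difference was -0.33 uncentred with 1 member past 2-fold, and leaving out replicate 1 or 2 in turn it ranged from -0.17 to -0.16 with 1 to 2 members past 2-fold. The median share outside protein-coding transcripts was 0.447% in the alignment-derived table. Related lists in FASTQ-derived TPM had medians of 9.52, 8.17, 20.2, 18.6 and 14.2 for assembly factors of complexes I to V, 55 for carriers, 11.8 for regulators and 31 for uncoupling and exchange genes. Of these moves, the causes were not tested beyond the length and copy values given above. Depth limits the restricted paralogs, whose levels in the alignment-derived table rest on 40 counts or fewer in a library (Cox6a2 had 118 and 80 in the FASTQ-derived table).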
